A study of Arabidopsis thaliana with 32 samples.

Results

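The response of callus to an activated LEAFY protein at 6 h was measured on 4 of the 32 two-colour arrays of a time course, those whose titles carry 6 h. LEAFY (LFY) is a plant transcription factor that commits a meristem to make a flower. It binds DNA as a regulator of floral genes such as APETALA1 and AGAMOUS, and in the plant its activity marks the step between the leafy and the flowering phase. In the fusion used here LFY is joined to the glucocorticoid receptor's hormone-binding part, which holds the protein in the cytoplasm until the steroid dexamethasone is given. Callus is a mass of dividing, largely undifferentiated cells grown in culture.

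At every time each array carried dexamethasone-treated and control callus of the same time, both from 35S:LFY-GR plants, on a cDNA array enriched for transcripts found in flowers. The tissue came from root explants per the labels. The times were 0, 2, 4, 6, 8, 10, 12 and 22 h, with 4 arrays each. At 6 h the dexamethasone RNA was in channel 2 on replicates 1 and 3, and in channel 1 on replicates 2 and 4. Both channels carried the transgene, whose 35S promoter is active in most tissues, so an effect of the steroid that does not pass through LFY-GR cannot be told apart from that of LFY. The labels name no inhibitor of protein synthesis, and they do not say whether the 4 arrays came from separate cultures. What the p-values take as error is thus the variation from array to array, and it may be technical only.

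Values are log2 ratios of the 2 channels, turned so that the sign has the same meaning on all arrays. A positive value then stands for more RNA in dexamethasone than in control callus, provided that the authors divided channel 2 by channel 1. That is likely, as it is the usual convention, but none of the sources used here states it. With the opposite division every sign turns, while sizes and counts stay as given. The 10816 features are identified by plate and well, and 0 of these identifiers occur in RefSeq's gene table for TAIR10.1. No feature therefore has a gene name here, tissue markers could not be examined, and 2 features on each side are named by identifier. A plate may hold several clones of the same transcript, so features are not genes.

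The 4 arrays at 6 h had values for 10700 to 10809 features, with medians between -0.04 and 0.02 in log2 units. Replicate 1 differed from the other arrays of 6 h in its extreme values. It had 185 values at the upper limit of the deposited scale, a ratio of 100, against 0, 18 and 24 on replicates 2, 3 and 4. It had 3 at the lower limit, against 29, 26 and 29. High upper-limit counts also occurred at other times, with 122 and 321 on replicates 1 and 3 of 4 h and 476 on replicate 2 of 8 h. Over all 32 arrays they ran from 0 to 476. Limit values were set to missing, and a feature was tested if it kept at least 1 value with dexamethasone in each channel. That left 10751 features, and 64 of the 65 lost had a limit value at 6 h. Of the 257 features with a limit value at 6 h, 206 had it on 1 array. In 12 features the limits in both orientations fell on opposite sides once turned, and in 34 on the same side.

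The 6 h ratio differed from 0 for 339 of the 10751 features tested (3.15%), by limma's moderated test with a Benjamini-Hochberg threshold of 0.05. The positive side held 227 of them (2.11% of those tested) and the negative side 112 (1.04%). In bulk RNA, fewer cells of a type and less RNA per cell cannot be told apart. The median log2 ratio was 0.61 over the 227 positive features, with quartiles of 0.47 and 0.83, and -0.57 over the 112 negative ones, with quartiles of -0.70 and -0.47. Over all features tested the median was -0.01. Fitted ratios under 0.5 log2 units in size made up 68 of the positive and 35 of the negative features, against a median standard error of 0.13 on either side. Averaging replicates 1 and 2, and replicates 3 and 4, as dye-swapped pairs left 97 positive and 30 negative calls. With the 4 arrays of 6 h fitted alone and without a dye term limma called 23 and 8, and without the dye term over all 32 arrays 167 and 64.

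The larger ratios lay mostly on the positive side. Beyond 2-fold there were 45 positive and 6 negative called features, and beyond 4-fold 2 and 0. Per array, the 45 had medians of 1.47, 1.23, 1.05 and 1.09 on replicates 1 to 4, and the 6 had medians of -1.46, -1.005, -1.19 and -1.13. Replicate 1 lay the farthest from 0 on either side. Both groups were chosen by their ratio on these arrays, so their distance from 0 is a description. The fitted ratio passed 2-fold in 125 features in all, 110 positive and 15 negative, and 74 of the 125 were not called. The lean to the positive side was thus present over all features tested as well, and is not particular to the called ones.

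**Figure D1:**
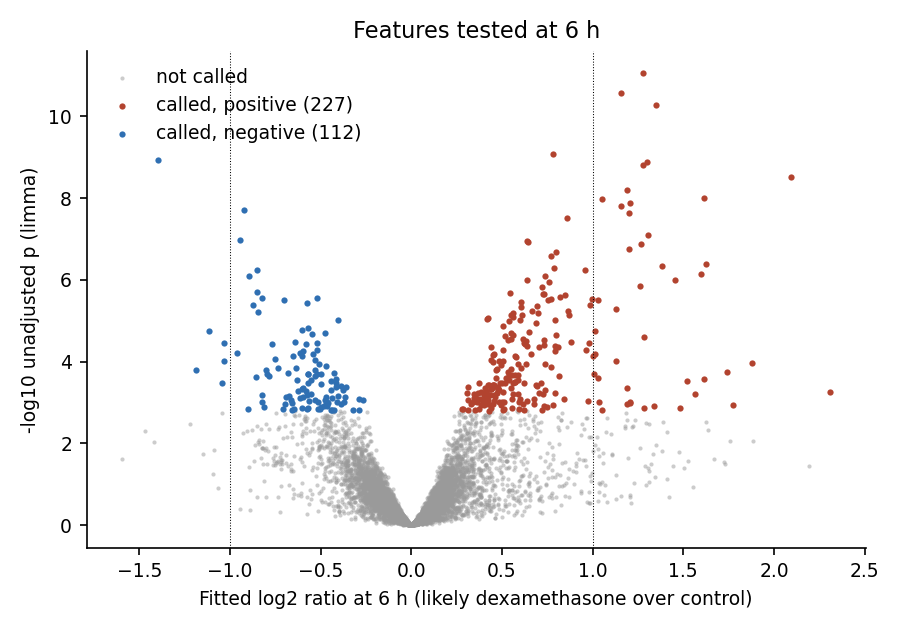
Each point is 1 of the 10751 features tested at 6 h, with the fitted log2 ratio on the x axis and -log10 of limma's unadjusted p on the y axis. Dotted lines mark 2-fold, beyond which lie 45 of the 227 called positive and 6 of the 112 called negative features.

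The called features were steady in sign across the 4 arrays. Of the 227 positive features, 203 (89.4%) had the same sign on every array with a value, and so did 100 (89.3%) of the 112 negative ones. Among all 10488 features with 4 values the share was 14.4%, with 733 all positive and 780 all negative. The called features were chosen on these arrays, so their share is a description. With dexamethasone in channel 2 the positive list had a median of 0.66, and with it in channel 1 0.58. For the negative list these medians were -0.53 and -0.65. Both orientations had the same sign in all 227 positive and in 109 of the 112 negative features. The lists were called on the mean over both orientations of these arrays, so this too is a description.

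Across all features the 4 arrays were only weakly alike. The correlation was 0.12 between replicates 1 and 3 and 0.20 between replicates 2 and 4, pairs of the same orientation. Between opposite orientations it ran from 0.04, for replicates 1 and 2, to 0.18, for replicates 1 and 4. These are correlations across features, which share the array and are not independent. Plate medians varied between arrays as well. The medians of the 114 plates correlated at -0.73 between replicates 1 and 2 and at -0.58 between replicates 3 and 4 after turning. For the other pairs it was lower in size, -0.13 between replicates 1 and 3, -0.14 between 2 and 4, 0.27 between 1 and 4 and -0.06 between 2 and 3. With each array's plate medians subtracted, an alternative chosen after seeing the data, limma called 358 features, 297 of them among the 339.

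As a check on arrays that took no part in the choice, features were called with 1 array of 6 h left out and read on it. The positive lists of 117 to 161 features had medians of 0.45, 0.49, 0.74 and 0.58 on replicates 1 to 4, a mean of 0.57 ± 0.13 (SD, n = 4). The negative lists of 50 to 61 features had medians of -0.32, -0.45, -0.37 and -0.52, a mean of -0.41 ± 0.09. All 8 medians kept the side of their list. The share of features with the sign of their list ran from 79.4% to 91.4% on the positive side and from 68.0% to 96.6% on the negative side, lowest for both on replicate 1. Should a pair of arrays be a dye swap of 1 RNA pair, the partner of the array read was still used to call its list. The lists depended on the number of arrays. Without replicate 1, 2, 3 or 4 of 6 h limma called 142, 161, 117 and 137 positive and 50, 61, 58 and 59 negative features, against 227 and 112 with all 4 arrays. In all, 74 positive and 22 negative features were called whichever array was left out.

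GP005B2 was the largest positive feature with a value of the same sign on all 4 arrays. Its log2 ratios at 6 h were 2.35, 2.55, 1.65 and 1.82 on replicates 1 to 4. All 4 arrays were high, and none of them overlapped the range at 0 h, which was -0.41 to 0.56. The mean was 2.09 ± 0.43 (SD, n = 4), a 4.27-fold ratio (SE 0.24 in log2 units, limma adjusted p = 4.02e-06). The 6 h ratio stood above that of 0 h by 2.12 (limma adjusted p = 0.00105) and below that of 22 h, with a difference of -1.73 (limma adjusted p = 0.00475). At 2 and 4 h its means were 0.46 ± 0.99 and 0.74 ± 0.76 (SD, n = 4 each), with arrays between -0.56 and 1.68. This spread went with the orientation. Replicates 2 and 4 stood at 0.82 and 1.68 at 2 h, against -0.09 and -0.56 on replicates 1 and 3. At 4 h they stood at 1.03 and 1.68, against 0.15 and 0.11. The call at 6 h was kept under all 17 alternatives other than the turned sign, with values of 1.77 to 2.33.

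GP009E11 followed, with 2.21, 2.01, 1.49 and 1.38 on replicates 1 to 4, a mean of 1.77 ± 0.40 (SD, n = 4). Its arrays at 6 h were close together and did not overlap those of 0 h, which ended at 0.54. Limma's adjusted p was 0.0413 (SE 0.49). The spread is estimated over all times, and replicate 1 at 4 h stood at 5.87, against a mean of 0.61 ± 0.36 (SD, n = 3) on the other arrays of 4 h. The call was lost in 9 of the 17 alternatives, among them each of the 4 that leave out 1 array of 6 h (adjusted p from 0.0945 to 0.172). Fits that do not use replicate 1 of 4 h kept it. Limma's adjusted p was 0.0129 with the arrays of 6 h alone and 0.00187 with those of 0 and 6 h only. It was 0.000556 without the arrays with over 100 upper-limit values. No difference of this feature from 0, 2 or 22 h passed the threshold. Larger fitted ratios among the positive calls belonged to 2 features passed over by the naming rule, 1 with a missing array and 1 with mixed signs.

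On the negative side GP089G2 had the largest ratio and the narrowest spread of the 4 named features. It stood at -1.45, -1.58, -1.24 and -1.33 on replicates 1 to 4, with a mean of -1.40 ± 0.15 (SD, n = 4) and limma adjusted p = 2.30e-06. At 0 h all arrays lay above 0, between 0.02 and 0.57. It was lower at 6 h than at 0 h by the test of the difference, -1.71 (SE 0.22, limma adjusted p = 9.89e-05). Over the times 2, 4, 6, 8, 10, 12 and 22 h its means were -0.81, -1.21, -1.40, -1.13, -1.07, -1.05 and -0.73, most negative at 6 h. Its 6 h value was not distinguished from 22 h, with a difference of -0.67 (SE 0.22, limma adjusted p = 0.206). The call at 6 h was kept under all 17 alternatives other than the turned sign.

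GP001B2 was more spread, with -1.96, -1.01, -1.38 and -0.42 on replicates 1 to 4. The mean was -1.19 ± 0.65 (SD, n = 4) and limma's adjusted p was 0.0118. All 4 arrays were negative, but the highest of them overlapped the 0 h range of -0.48 to -0.04. The 6 h minus 0 h difference was -0.995 (limma adjusted p = 0.479). The call was lost in 7 of the 17 alternatives, among them those without replicate 1, 2 or 3 of 6 h (adjusted p = 0.106, 0.0523 and 0.0518).

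**Figure D2:**
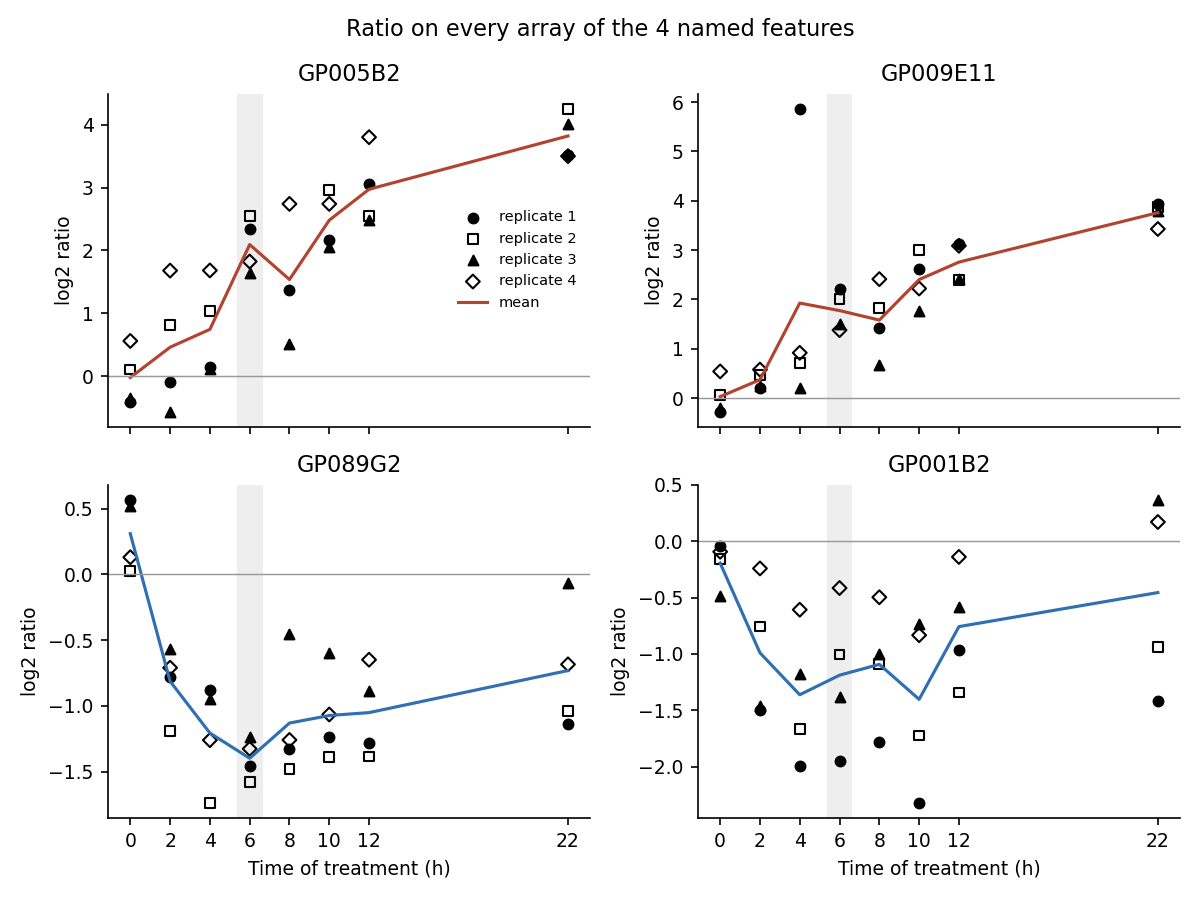
Log2 ratios of the 4 named features on each of the 32 arrays, by time of treatment, with a line through the mean at each time and the 6 h arrays shaded. Filled symbols have dexamethasone in channel 2 and open symbols in channel 1, and at 6 h GP005B2 ran from 1.65 to 2.55 and GP089G2 from -1.58 to -1.24.

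The 0 h arrays serve as background, as treatment had lasted 0 h there. Limma called 0 of 10763 features (0%), while 296 (2.75%) had an unadjusted p under 0.05. The 0 h arrays mostly had fewer features beyond 2-fold, 0.44% to 2.13% per array against 2.05% to 4.09% at 6 h. They were not all quieter in the bulk of features. The median absolute deviation was 0.37 on replicate 3 of 0 h, against 0.32 to 0.35 on the arrays of 6 h. As 1 variance per feature is shared by all times, the 0 calls do not measure the false calls at 6 h. With the arrays scaled, limma called 134 features at 6 h, against 339 without. The ratio at 6 h differed from that at 0 h for 54 of 10710 features (0.504%), 38 above (0.355%) and 16 below (0.149%), with 722 at an unadjusted p under 0.05. This difference carries the error of both times, with a median standard error of 0.19, against 0.13 for the 6 h ratio alone. The 38 had a median of 0.87 at 6 h and -0.08 at 0 h, and all 38 were among the 227. The 16 had medians of -0.81 and 0.17, and 14 of them were among the 112. Of the whole lists, 209 of the 227 and 93 of the 112 reached an unadjusted p under 0.05 in this test in their own direction. Over all 10710 features the share was 6.74%, in either direction. The lists were chosen by the 6 h ratio, which is 1 term of this difference, so their shares are a description. The 54 fell to 35 without replicate 3 of 6 h or of 0 h. The 38 fell to 24 without replicate 3 of 0 h, and the 16 to 9, 8 and 6 without replicate 2, 3 or 4 of 6 h and to 7 without replicate 1 or 2 of 0 h.

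Called features became more frequent over the first hours. On the positive side, the times 2, 4, 6, 8, 10, 12 and 22 h had 16 (0.149%), 102 (0.95%), 227 (2.11%), 250 (2.34%), 242 (2.26%), 251 (2.34%) and 456 calls (4.25%). On the negative side the same times had 17 (0.159%), 78 (0.727%), 112 (1.04%), 88 (0.823%), 99 (0.923%), 56 (0.522%) and 175 calls (1.63%). A count at one time and a count at another do not test a difference between them. The 6 h ratio differed from that of 2 h for 7 features (0.0655%), 6 above (0.0561%) and 1 below (0.00935%), with 898 at an unadjusted p under 0.05. All 6 were on the positive list, with medians of 1.17 at 6 h and -0.10 at 2 h. The difference was not stable to the processing, as limma called 0 features with the dye-swapped pairs averaged (841 at an unadjusted p under 0.05), with the arrays scaled (775) or without the dye term (692). It also called 0 without replicate 2 of 6 h (900 at an unadjusted p under 0.05) or without replicate 2 of 2 h (536), and 1 without replicate 3 of 6 h. It called 3, 2 and 3 without replicate 1, 3 or 4 of 2 h.

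The positive list was at 6 h near its level of 8 to 12 h. The median of the 227 features per array averaged 0.02 ± 0.06, 0.17 ± 0.06, 0.37 ± 0.05, 0.62 ± 0.03, 0.59 ± 0.12, 0.62 ± 0.07, 0.60 ± 0.04 and 0.72 ± 0.03 (SD, n = 4 each) over the times 0, 2, 4, 6, 8, 10, 12 and 22 h. The arrays of 6 h began at 0.58, above those of 4 h, which ended at 0.43, and they overlapped those of 8, 10 and 12 h. The mean over arrays for the negative list was farthest from 0 at 6 h, where the list was chosen. Its medians averaged -0.04 ± 0.06, -0.22 ± 0.11, -0.41 ± 0.07, -0.57 ± 0.07, -0.40 ± 0.17, -0.27 ± 0.10, -0.27 ± 0.08 and -0.22 ± 0.12 over the same times (SD, n = 4 each). The arrays of 6 h lay between -0.63 and -0.47 and overlapped those of 4 h, which reached -0.49, and of 8 h, which reached -0.63. Those of 22 h lay between -0.35 and -0.10, without overlap. The lists were chosen at 6 h, which draws the 6 h values away from 0, and no test is given for these medians. All features together stayed between -0.01 and 0.01 on average at every time.

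**Figure D3:**
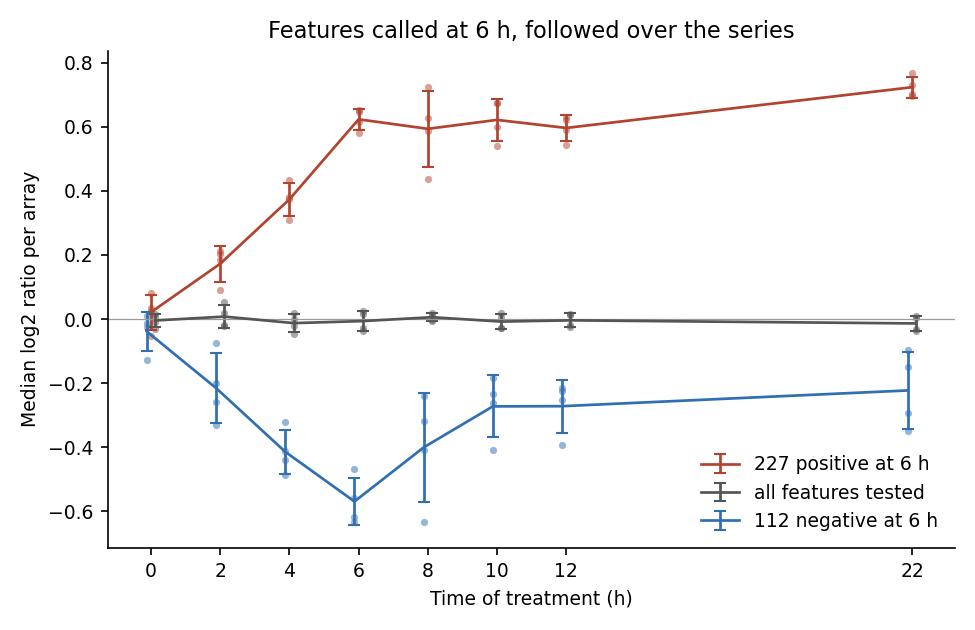
Median log2 ratio per array (points), with mean and SD over 4 arrays, of the 227 positive and 112 negative features called at 6 h and of all features tested, by time of treatment. The positive list stood at 0.62 at 6 h and 0.72 at 22 h, and the negative list at -0.57 and -0.22.

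Lists chosen by their ratio at other times were read at 6 h as well, although the arrays of 6 h took part in the variance and dye term behind those calls. The 102 positive features of 4 h had array medians at 6 h averaging 0.67 ± 0.06 (SD, n = 4), against a fitted median of 0.68 at 4 h itself. The 250 positive features of 8 h averaged 0.57 ± 0.03 at 6 h, against 0.68 at 8 h. The 78 negative features of 4 h averaged -0.48 ± 0.07 at 6 h, against -0.58 at 4 h, and the 88 of 8 h averaged -0.46 ± 0.07, against -0.64 at 8 h. The 16 positive features of 2 h averaged 0.99 ± 0.12 at 6 h, against 0.70 at 2 h. Its 17 negative features averaged -0.43 ± 0.09 at 6 h, against -0.67 at 2 h. For the lists of 22 h the 6 h values were smaller, 0.36 ± 0.06 for 456 positive features against 0.78 at 22 h, and -0.23 ± 0.12 for 175 negative features against -0.53. Each list was chosen by its ratio at its own time, which draws the values there away from 0. The 6 h values are means of array medians and the others are medians of fitted ratios, and no test is given.

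Many positive features of 6 h were called again later, and fewer of the negative ones were. The times share no arrays, but in the fit they share each feature's dye term and variance. Of the 227 positive features, 164 (72.2%) were called positive at 8 h, where they made up 65.6% of the list, and 158 (69.6%) at 22 h, where they made up 34.6%. Of the 112 negative features, 40 (35.7%) were called negative at 8 h, 45.5% of that list, and 27 (24.1%) at 22 h, 15.4% of that list. At 4 h, 78 (34.4%) of the positive and 34 (30.4%) of the negative features had been called, which were 76.5% and 43.6% of the 4 h lists. All 112 negative features had a negative fitted ratio at 4 h, and 222 of the 226 positive features measured there a positive one.

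The 2 lists fall into groups by when else they were called. Of the positive features, 117 (51.5%) were called at each of 8, 10, 12 and 22 h, and 15 at every time from 2 to 22 h. Over the times 2, 4, 6, 8, 10, 12 and 22 h the 117 had median fitted ratios of 0.29, 0.52, 0.73, 0.82, 0.85, 0.89 and 1.002. Of the negative features, 11 (9.82%) were called at each of the 4 later times, with medians between -0.65 and -0.78 from 4 to 22 h. Features with no call at 2 or 4 h made up 149 of the positive and 77 of the negative list. Those 149 had medians of 0.27 at 4 h, 0.55 at 6 h and 0.58 at 22 h, and the 77 had -0.30, -0.57 and -0.16.

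At 6 h alone 37 positive (16.3%) and 53 negative features (47.3%) were called, which does not show that they responded at no other time. The median fitted ratio of the 37 was 0.20 at 4 h, 0.46 at 6 h and 0.16 at 8 h, and that of the 53 was -0.28, -0.55 and -0.32. Of the 53, 39 had an unadjusted p under 0.05 on the same side at 4 or 8 h, as had 14 of the 37. The 6 h ratio was also set against the mean of 4 and 8 h, feature by feature. Limma called 0 of 10653 features (0%), with 244 (2.29%) at an unadjusted p under 0.05 and a smallest adjusted p of 0.58, and it called 1 without replicate 3 of 6 h. With all arrays no feature was shown to depart at 6 h from its neighbouring times. Called features of 6 h lay 0.10 above that mean on the positive and 0.19 below it on the negative side, in median, before any allowance for their choice at 6 h.

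Between 6 and 22 h the ratio differed for 95 of 10711 features (0.887%). At 6 h it was the lower in 87 of them (0.812%) and the higher in 8 (0.0747%), and 1082 features had an unadjusted p under 0.05. The 87 had a median of 0.20 at 6 h and 1.24 at 22 h, and 31 of them were on the positive list of 6 h. Over all features tested at 6 h, 2.11% were called positive and 1.04% negative. In 31 of the 87 the ratio at 22 h was beyond 4-fold, and 26 of these were also called positive at 6 h. The 6 h ratios of the 31 lay between 0.37 and 2.09. As the 87 were called with the 6 h values, the 26 are a description. The choice of these 31 fixes the difference between 6 and 22 h, and the values that follow carry no test. Their median fitted ratios were -0.02, 0.24, 0.45, 0.96, 1.09, 1.64, 1.81 and 2.96 over the times 0, 2, 4, 6, 8, 10, 12 and 22 h.

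Some fitted ratios had opposite signs at 6 and 22 h, 32 of the 87 with the lower ratio at 6 h and all 8 with the higher one. Of the 87, 8 were on the negative list of 6 h, where their median was -0.51, against 0.42 at 22 h. All 8 had a ratio above 0 at 22 h, between 0.02 and 0.70, and 4 were called positive there. In the opposite direction, the 8 features with the higher ratio at 6 h had a median of 0.25 at 6 h and -0.26 at 22 h, 3 of them called positive at 6 h and 4 called negative at 22 h, with 0 called at both. These 8 became 5 without replicate 2 and 19 without replicate 4 of 22 h. Of the rest of the negative list, 0 features had a 6 h ratio called different from that of 22 h. A 6 h ratio below that of 22 h was thus shown for 8 of the 112 negative features, while 49 reached an unadjusted p under 0.05. The list was chosen by its 6 h ratio, which favours this direction. Over all 10711 features 1082 (10.1%) reached it, in either direction.

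**Figure D4:**
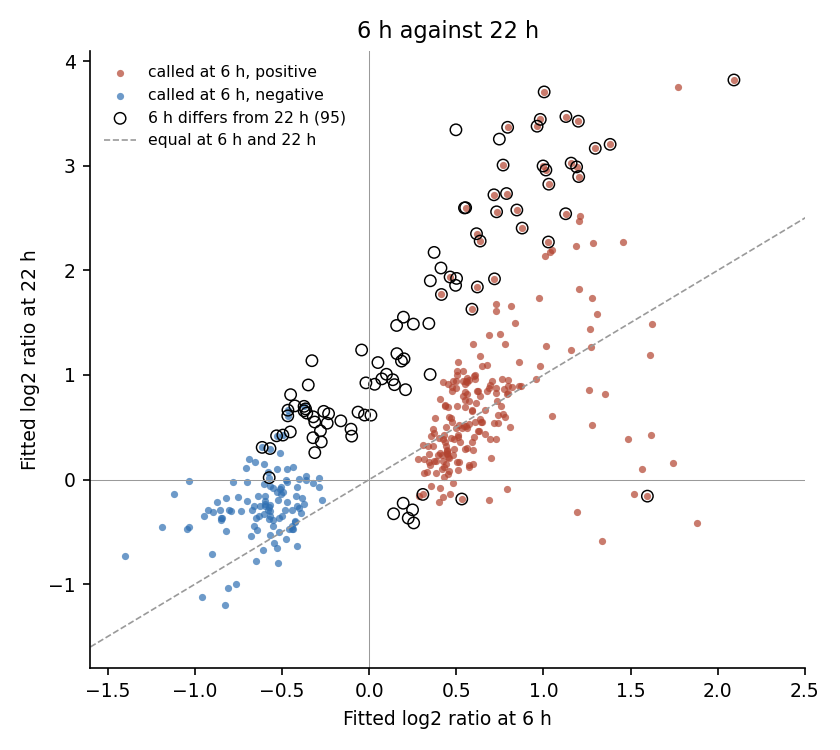
Fitted log2 ratio at 6 h (x axis) against that at 22 h (y axis) with filled points for the features called at 6 h, positive and negative, and rings around the 95 features whose 6 h ratio differed from that of 22 h. Rings without a filled point are features not called at 6 h, 48 above the dashed line and 5 below it. Of the ringed features 87 lie above the dashed line of equal ratios, 31 of them beyond 4-fold at 22 h, and 8 lie below it.

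The called features were spread over most plates, with 1 exception. Of the 114 plates, 106 held a called feature at 6 h. Plate GP001 held 12 of the 112 negative features, 12.9% of its 93 tested features, against 1.04% over all plates, and the next plates held 4 each. This was not particular to 6 h. The plate held 12 of the 78 negative calls of 4 h and 11 of the 88 of 8 h. Of these, 9 and 8 were also called at 6 h. The 12 features had array medians of -0.77 ± 0.16 at 6 h (SD, n = 4), against 0.03 ± 0.20, -0.30 ± 0.21, -0.65 ± 0.10, -0.66 ± 0.29 and -0.33 ± 0.10 over the times 0, 2, 4, 8 and 22 h. All 12 had negative fitted ratios at each time from 2 to 22 h. The plate as a whole moved less, its median over all features lying between -0.23 and 0.04 on the 4 arrays of 6 h. With plate medians subtracted 8 of the 12 were called, and with 1 array of 6 h left out 6 to 10.

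The same plate also held 4 positive features at 6 h, and 6 of its features were among the 31 that were beyond 4-fold at 22 h. Those 6 stood between 0.50 and 1.004 at 6 h and between 2.60 and 3.71 at 22 h. Plate GP005 had the most positive features, 8 of 95 tested (8.42%, against 2.11% over all plates), and 0 negative ones. The low-numbered plates, GP000 to GP010, held 34 positive and 30 negative of 983 tested features (3.46% and 3.05%), and the other 103 plates held 193 and 82 of 9768 (1.98% and 0.84%). The plate groups were formed after the data had been seen and carry no test. What the plates hold is not given in the sources used here, and whether these features are clones of the same transcripts was not tested.

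**Figure D5:**
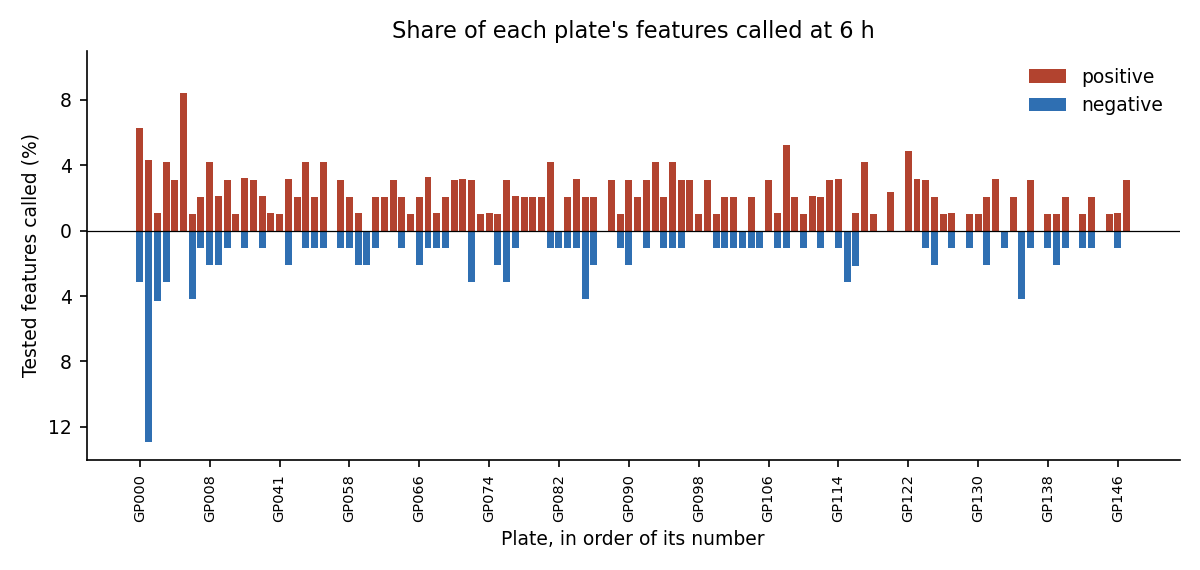
Share of each plate's tested features called at 6 h, in percent, positive features upward and negative features downward from 0, over the 114 plates in order of their number. Plate GP001 has 12.9% of its features on the negative side and plate GP005 8.42% on the positive side.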

How the data were processed

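The authors deposited 1 log10 ratio per feature and array for 32 two-colour cDNA arrays, analysed with Rosetta Resolver per the labels. The log10 scale was read from the values, which end at -2 and 2. How the authors corrected the background and normalized, which dyes they used and which channel was the numerator is not given in these sources. Precision is limited by the number of arrays. Values were multiplied by 3.32 (log2 of 10), those of arrays with dexamethasone in channel 1 were turned, and limit values were set to missing. A limma 3.58.1 model (R 4.3.3) over all 32 arrays had 1 coefficient per time and 1 dye term, with 23 residual degrees of freedom for complete features. Two-sided moderated tests were adjusted by Benjamini-Hochberg over all features tested (threshold 0.05), for the 6 h ratio and its differences from 0, 2 and 22 h and from the mean of 4 and 8 h, where features needed a value per orientation at each time compared. The code was also run on simulated data with independent normal noise, without the plate shifts or the unequal spread of the real arrays. That run is no support for the calls. Named features were the 2 largest calls per side with the same sign on all 4 arrays of 6 h. The comparisons, lists and rules were chosen with earlier results of these data known. Alternatives covered limit values, dye term, arrays fitted, averaging of pairs, centring, scaling, filters, variance, threshold and each array left out.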

Additional observations from a re-analysis of the deposited data

Results flagged for a closer look

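Of 51 groups of 4 arrays examined, 3 held a value far from the other 3 by Dixon's criterion, where chance gives about 1 in 20, or 2.55. Among the arrays of 6 h, replicate 1 had 185 values at the upper limit, and its 3 values at the lower limit were also far from the other 3 arrays. Feature GP009E11 at 4 h had 5.87 on replicate 1.

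Differences between times were tested directly. The 6 h ratio differed from that of 0 h for 54 features, from that of 2 h for 7 and from that of 22 h for 95. GP005B2 differed by 2.12 between 6 and 0 h and by -1.73 between 6 and 22 h, and GP089G2 by -1.71 between 6 and 0 h.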

How the results depend on the processing

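Counts at 6 h (339 in all, 227 positive, 112 negative), for 6 h minus 0 h (54), minus 2 h (7) and minus 22 h (95) stayed within 1.5 times with limit values kept, centring, a robust variance, features on all 4 arrays, the turned sign and plate medians subtracted. With replicates 1 and 2, and 3 and 4, averaged they were 127, 97, 30, 17, 0 (841 at an unadjusted p under 0.05 by limma) and 58, in that order. At a threshold of 0.01 they were 137, 103, 34, 27, 0 and 63. Arrays scaled gave 134, 101 and 33 at 6 h, 24 for 6 h minus 0 h and 0 (775 unadjusted) for 6 h minus 2 h. The 6 h arrays alone, fitted without a dye term, gave 31, 23 and 8. Like totals can hide a change of members, as with plate medians subtracted 297 of the 339 were called again. Arrays of 0 h and 6 h only gave 225 in all, 158 of them among the 339, 125 positive, and 13 for the difference. No dye term gave 64 negative features, and 0 (692 unadjusted) for 6 h minus 2 h. Without the arrays with over 100 upper-limit values, chosen after seeing the data, they were 154, 117 and 37 at 6 h, 31 for 6 h minus 0 h and 0 (825 unadjusted) for 6 h minus 2 h. Leaving out 1 array gave 175 to 222 at 6 h, 117 to 161 positive and 50 to 61 negative, 35 to 50 for 6 h minus 0 h, 0 to 10 for 6 h minus 2 h, 71 to 120 for 6 h minus 22 h and 0 to 1 for 6 h minus the mean of 4 and 8 h, which stayed at 0 in the other alternatives (161 to 473 at an unadjusted p under 0.05 by limma). The replicate block gave 562, 356 and 206 at 6 h, 95, 28 and 211 for the differences. Replicate numbers of the same orientation deviated together in 38 of 56 pairs of times at a correlation over 0.1. The 56 correlations ran from -0.08 to 0.38. Each of the 32 arrays correlated best with its own number. Deviations were taken from the mean of the 2 arrays of the same time and orientation, which therefore mirror each other. The result of 1 array fixes that of its partner, so the 32 are not separate outcomes. The correlations are only a hint from the data that the labels do not state. Turning the sign gave -2.09 for GP005B2, -1.77 for GP009E11, 1.40 for GP089G2 and 1.19 for GP001B2, by construction. The cause of the other changes was not tested. No signal over background could be examined.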
